A study of Mus musculus with 598 samples.

Results

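Hand1 and Hand2 are a pair of mouse genes that encode basic helix-loop-helix transcription factors, and their rows were taken by gene identifier from a table of 40912 genes. They are the 2 members described here, across 598 single cells of gastrulating mouse embryos that were sorted for GFP from a Mesp1 reporter and sequenced as 1 library per cell. By the labels, 85 cells (14.2%) were knockout cells of E6.75, 28.8% were wild type cells of the same stage, and 57.02% were wild type cells of E7.25, where E counts days of embryonic development. All 3 groups carry the Mesp1-GFP reporter and were sorted as Mesp1+ cells, so each describes cells sorted for that reporter and none describes the whole embryo. The labels name neither the gene that was knocked out nor the embryo, litter or pool of any cell. Each group was therefore 1 sample, and no test between groups was possible. Intervals, where given, cover the counting of reads or cells only and not the spread between embryos.

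Hand factors bind DNA as dimers with the widely expressed E proteins, and Id proteins, which lack the DNA-binding part, take E proteins away from them. In the mouse, Hand1 is known for its part in trophoblast giant cells, in the mesoderm of the extraembryonic membranes and in the early heart, and Hand2 for its part in the right ventricle, the limb bud and the branchial arches. BMP ligands induce both genes in lateral mesoderm, and Mesp1, itself a basic helix-loop-helix factor, marks nascent mesoderm as it forms at the primitive streak, among it the progenitors of the heart and of the extraembryonic mesoderm.

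Hand1 (ENSMUSG00000037335) lies at chr11:57828705-57832818 on the minus strand, and Hand2 (ENSMUSG00000038193) at chr8:57320983-57324633 on the plus strand, in GENCODE M21 on GRCm38, the assembly that mm10 names. Hand2 has an antisense neighbour, the long noncoding RNA gene Hand2os1 (ENSMUSG00000100510), at chr8:57281117-57324233 on the minus strand. Hand2os1 overlaps Hand2 by 3251 bases, and 461 of the 2351 exon bases of Hand2 also lie in exons of Hand2os1. No strand setting is given for the counts, so reads from the shared bases cannot be told apart.

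The stretch before the Hand2 start site is shown because by RefSeq Hand2os1 also starts in it and the 2 neighbours were read in the same cells. The RefSeq start sites on GRCm38.p6 are base 57320983 for Hand2 and base 57320859 for Hand2os1, from which the genes point away from each other. The annotations differ here, since GENCODE M21 starts Hand2os1 at base 57324233, inside Hand2, and runs it back through that gene. The 250 bases before the Hand2 start site, chr8:57320733-57320982 on the plus strand, are followed by the same stretch of Msx2, chr13:53472781-53473030 on the minus strand, since Msx2 was the gene whose reads followed those of Hand1 most closely. Both run 5′ to 3′ from RefSeq, and capitals mark an E-box (CANNTG, the motif of basic helix-loop-helix dimers), a GATA core (TGATAA or AGATAA) or a GC box (GGCGCC), searched on both strands.
Hand2: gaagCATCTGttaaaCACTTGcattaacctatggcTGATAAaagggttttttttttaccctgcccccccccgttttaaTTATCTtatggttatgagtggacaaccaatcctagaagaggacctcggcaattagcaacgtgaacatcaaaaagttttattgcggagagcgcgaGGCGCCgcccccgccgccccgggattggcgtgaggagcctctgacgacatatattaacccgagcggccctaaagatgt
Msx2: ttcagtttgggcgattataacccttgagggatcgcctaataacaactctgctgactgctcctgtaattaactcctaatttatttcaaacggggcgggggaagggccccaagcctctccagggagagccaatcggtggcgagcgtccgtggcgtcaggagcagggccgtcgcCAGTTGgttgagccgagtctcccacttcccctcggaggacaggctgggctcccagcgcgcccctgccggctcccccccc
The Hand2 stretch held 2 E-boxes at its far end, CATCTG and CACTTG. Next to them it held 2 GATA cores, TGATAA and, on the other strand, TTATCT, and it held a GC box at 78 bases before the start site. The Msx2 stretch held 1 E-box, CAGTTG, at 79 bases before the start site. Of 32851 promoters of the same length, 66.2% held an E-box, 7.94% TGATAA, 9.99% AGATAA and 9.59% the GC box. These matches describe letters and not bound sites.

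The cells held 101895 to 14159574 reads on genes, with group medians of 940161 in knockout, 1088116.5 in E6.75 wild type and 1377888 in E7.25 wild type cells. They fell into 2 library sets that no label names. The cells of set 1 (57.02%) had reads of all 8 of Foxe1, Dusp15, Hoxd13, Kcnk12, Pou3f3, Six3, Sox3 and Vax1, and those of set 2 (42.98%) had reads of at most 4 of them. Set 1 held all 85 knockout cells, 83 of the E6.75 wild type cells, with the other 89 in set 2, and 50.7% of the E7.25 wild type cells, so the sets split both wild type groups and knockout cells are set beside wild type cells of set 1. Mesp1 stood at 7.40 reads per 1000000 reads on genes (CPM) over the knockout cells, 406 in E6.75 wild type cells of set 1, 448 in set 2, and 531 in both sets at E7.25. All but 1 wild type cell of each stage held a read of this marker of the sort, as did 70 of the 85 knockout cells, whose level was low. The protocol text in the labels speaks of adult bone marrow, and the 9 bone marrow markers (Kit, Ptprc and the like) summed to 5.86 to 14.7 CPM by group and set. Of the 11 trophoblast markers, the placental hormone genes Prl3d1 and Prl2c2 were at 0 reads in every group, and the summed level of the list was 28.2 to 59.2 CPM, with 2 or 3 of its genes at 5 CPM or more.

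Hand1 was read far less in knockout than in wild type cells at E6.75. Its summed level was 5.38 CPM in knockout cells (612 reads, exact Poisson 95% interval 4.96 to 5.82). It was 66.6 CPM in E6.75 wild type cells of set 1 (6310 reads, 64.99 to 68.3) and 68.4 CPM in those of set 2 (11048 reads, 67.2 to 69.7). At E7.25 it was 96.7 CPM in set 1 (17942 reads, 95.3 to 98.1) and 98.4 CPM in set 2 (36215 reads, 97.4 to 99.4). The 2 sets thus gave nearly the same Hand1 level at each stage, and the order of the groups was knockout, E6.75 wild type, E7.25 wild type.

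Cells within a group differed more than the groups did. In knockout cells Hand1 ran from 0 through a median of 0 to 157.9 CPM, and 1 of the 85 cells stood above 100 CPM. In E6.75 wild type cells it ran from 0 through a median of 15.98 to 536 CPM, with 39 cells (22.7%) above 100 CPM. In E7.25 wild type cells it ran from 0 through a median of 2.12 to 1736 CPM, with 66 cells (19.4%) above 100 CPM. Values up to 157.9 CPM occurred in all 3 groups and higher ones in wild type cells alone. The E7.25 group held the highest cells but had a lower median than the E6.75 wild type group.

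**Figure D1:**
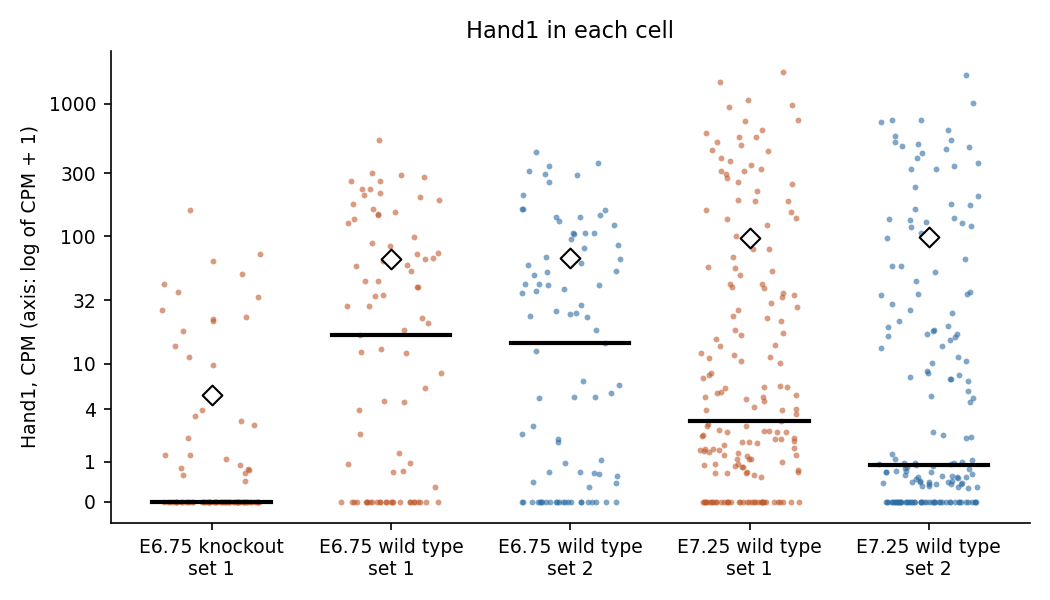
Hand1 in each cell, in CPM on a log axis of CPM + 1, by group and library set. Points are cells, bars medians and diamonds the summed level of the group, which is 5.38 CPM in the knockout cells and 66.6 to 98.4 CPM in the wild type columns.

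Each cell was also drawn down to 100000 reads at random, so that all cells were compared at 1 depth. At that depth 17.6% of knockout cells held a Hand1 read (15 of 85 cells, exact Clopper-Pearson interval 10.2% to 27.4%). In E6.75 wild type cells the share was 55.4% in set 1 and 53.9% in set 2. At E7.25 it was 48.6% in set 1 and 39.9% in set 2. Without thinning, 35.3% of knockout, 71.5% of E6.75 wild type and 74.8% of E7.25 wild type cells held a Hand1 read. Between the wild type stages the share of thinned cells was lower at E7.25 while the summed level was higher, and no order of the stages is read from the share.

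As a log2 ratio with 1 CPM added, Hand1 was 3.41 lower in knockout cells within set 1, a 10.6-fold difference of summed levels. Over both sets the ratio was -3.43. Of 10099 genes with a mean of at least 5 CPM in set 1, 4.65% were at least 2-fold lower in knockout cells, and the median gene stood at -0.02, so Hand1 was among a small share of genes in that direction. The knockout reads came from few cells: the 5 cells with most Hand1 reads held 61.9% of them. The same 5-cell share was 51.1% in E6.75 wild type cells of set 1. In E7.25 cells Hand1 was 0.53 higher than at E6.75 in set 1 and 0.52 higher in set 2 on the same scale, below the 2-fold mark that 5.37% and 4.13% of genes passed upward.

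Hand1 reads were concentrated in a few clusters of E7.25 wild type cells. Cells were clustered within each group, with Hand1, Hand2 and Hand2os1 left out of the clustering, so the genes that define a cluster are no finding here and Hand1 is described across them. At E7.25, 3 of 11 clusters held 93.9% of all Hand1 reads in 28.7% of the cells, and 61 of the 66 cells above 100 CPM. These 3 were picked after their Hand1 levels were seen. In set 1 alone they held 93.95% and in set 2 alone 93.9% of the reads.

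The first of these clusters (30 cells) was extraembryonic mesoderm-like by its markers, 11 of 17 of which were at least 2-fold higher there than in other cells. Of the 16 haemato-endothelial markers 5 were at least 2-fold higher there too, namely Etv2, Kdr, Tal1, Lmo2 and Runx1. The leading genes of this cluster were Bmp4, a BMP ligand, Podxl, Stard8 and Etv2. Its summed Hand1 level was 255.6 CPM in set 1 and 589 CPM in set 2, and the cell medians were 185.4 and 458 CPM. The next (44 cells) was led by Tbx3, Bmper and Evx1. It counted as primitive streak-like through 4 of 12 markers, Mixl1, Wnt3, Evx1 and Cdx2, while T and Eomes were not 2-fold higher. Pmp22, Msx1 and Msx2, 3 of the 17 extraembryonic mesoderm markers, were at least 2-fold higher too. Msx2 and Kdr, which belong to other lists, were also among the 10 leading genes of this cluster. Hand1 there was 468 CPM in set 1 and 219.6 CPM in set 2. The other one (24 cells) met no list and was led by Id2, Fos and Msx1, with Hand1 at 108.2 CPM in set 1 and 300.7 CPM in set 2. The order of these 3 clusters thus changed from 1 set to the other, so none of them is placed above its neighbours.

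Every other E7.25 cluster lay below these 3 in both sets. The cluster led by Deptor, Mesp2 and Frzb stood at 26.96 CPM in set 1 and 14.4 CPM in set 2, and that led by Alx1 and Tcf15, genes of paraxial and head mesoderm, at 32.5 and 7.19 CPM, so their order also changed from set to set. The cluster led by Lhx1 and Gsc, 18 of whose 19 cells were in set 2, stood at 13.5 CPM there. The cluster led by Hoxb1, Wnt3a and Msgn1, whose 34 cells were all in set 2, stood at 8.02 CPM. The lowest over both sets were the cluster led by Ripply2, with 0.82 CPM, and that led by Cldn6, Trh and Cldn7, with 0.97 CPM, and their intervals (0.57 to 1.15 and 0.75 to 1.25 CPM) overlapped.

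At E6.75 the cluster led by Etv2, Bmp4, Dusp2 and Kdr (19 cells) met no list. Of the extraembryonic mesoderm markers 7 of 17 were at least 2-fold higher there, and of the haemato-endothelial ones 2 of 16, Etv2 and Kdr. This cluster had the highest Hand1 level in both sets, 196.7 CPM in set 1 and 239.1 CPM in set 2. Every cell in it held a Hand1 read after thinning. It held 31.4% of the group's Hand1 reads. The epiblast-like cluster (36 cells, with Fgf5, Utf1 and Dnmt3b) stood at 8.83 CPM in set 1 (7.69 to 10.1) and 0.85 CPM in set 2, the lowest value there. In set 1 the cluster led by Mir6236 and Zbtb41, with 4 cells and 9 reads, stood at 7.01 CPM, with an interval (3.21 to 13.3) that held the epiblast-like value. The 5 clusters other than the Etv2 and the epiblast-like one lay between 25.4 and 79.4 CPM over both sets, but between 7.01 and 104.02 CPM in set 1 and between 33.3 and 74.4 CPM in set 2. In knockout cells the 6 clusters, none of which met a marker list, ran from 0.15 to 15.3 CPM, and 5 of the 7 wild type clusters of that stage stood above this range in set 1.

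**Figure D2:**
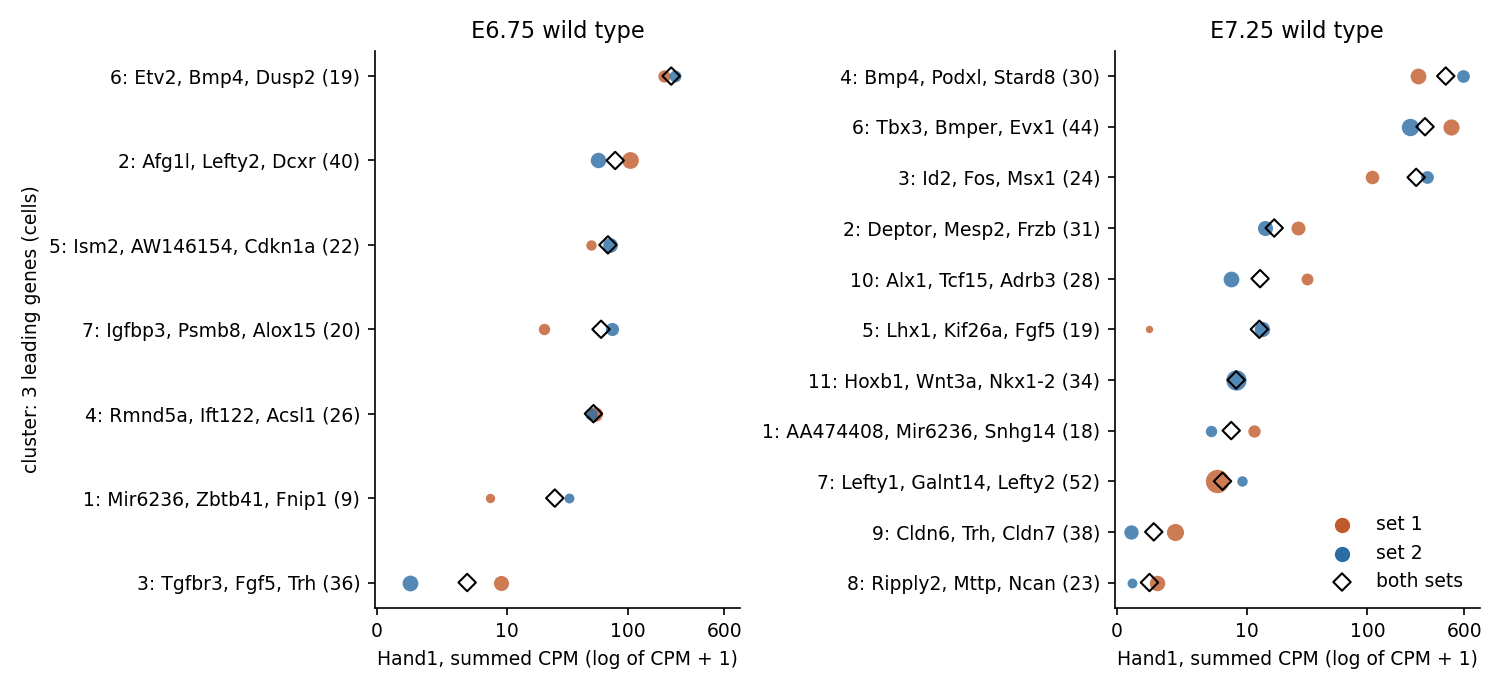
Summed Hand1 level of each wild type cluster in CPM, on a log axis of CPM + 1, with clusters ordered by the level over both sets (diamonds) and points for each library set, their area growing with the number of cells. At E7.25 the 3 clusters at the top stand between 247.5 and 427 CPM over both sets and the next one at 17.2 CPM.

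Hand2 could be followed in set 2 alone. In set 1 every cell held a Hand2 read, at a number that changed little with the depth of the cell. From the shallowest to the deepest of 4 bins of set 1 cells the median of all reads grew 5.75-fold, while the mean number of Hand2 reads went from 28.1 to 37.3, a 1.33-fold step. Over the same cells the mean of Hand1 reads grew 7.73-fold and that of Hand2os1 5.04-fold. In set 2 the mean of Hand2 reads went from 1.52 to 7.34, a 4.82-fold step over a 3.57-fold step of depth. The source of these nearly constant Hand2 reads in set 1 was not tested.

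**Figure D3:**
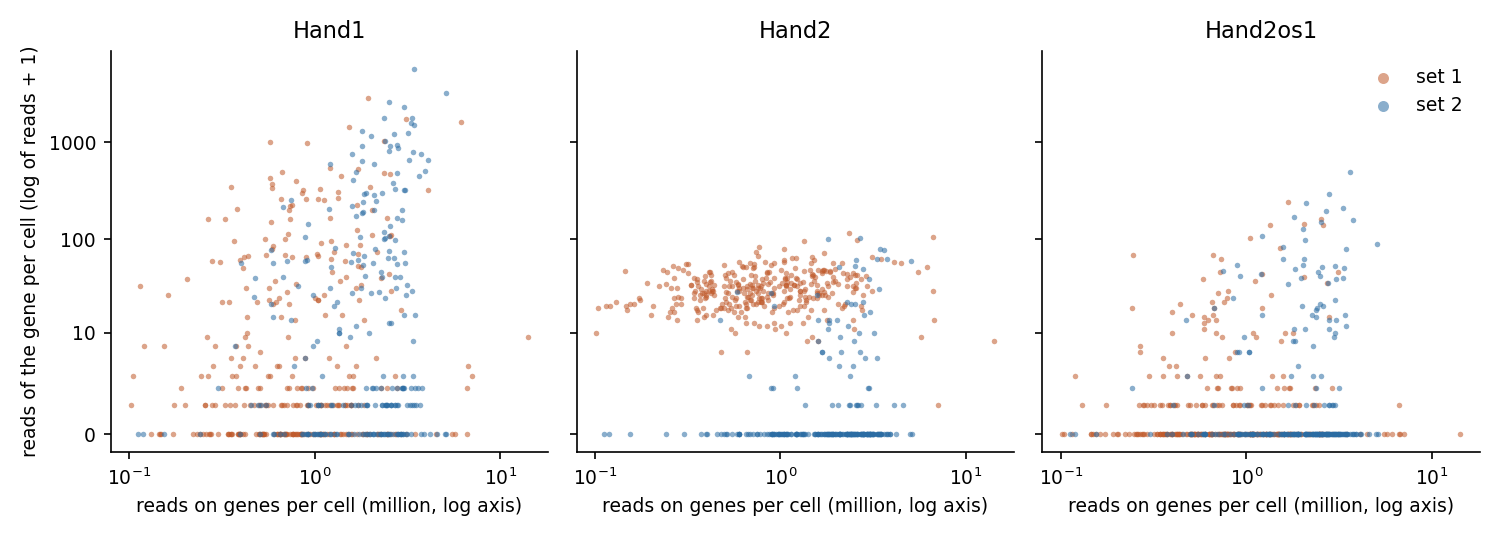
Reads of Hand1, Hand2 and Hand2os1 in each cell against all reads on genes in that cell, both on log axes, coloured by library set. The Hand2 reads of set 1 form a nearly flat band, with a mean of 28.1 reads in the shallowest and 37.3 in the deepest bin, which neither Hand1 nor Hand2os1 shows.

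Any comparison of Hand2 that uses set 1 carries this band. Over all cells of E6.75, Hand2 had a summed level of 19.1 CPM with the knockout and of 10.4 CPM without it, a log2 ratio of 0.82. Within set 1 the wild type level was 27.04 CPM and the ratio turned to -0.48. With the knockout cells all in set 1, these data hold no Hand2 comparison of knockout and wild type cells outside that band, and no direction is drawn. The reads of Hand2os1, whose level was alike in both sets, give 13 reads in knockout cells (0.114 CPM, interval 0.061 to 0.195) beside 1.66 CPM in E6.75 wild type cells of set 1 (1.41 to 1.94).

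In set 2 Hand2 was low at E6.75 and higher at E7.25. At E6.75 it stood at 0.613 CPM (99 reads, interval 0.498 to 0.746), with a read in 12 of 89 cells, a median of 0 and a highest cell of 21.7 CPM. At E7.25 it stood at 3.16 CPM (1163 reads, 2.98 to 3.35), with a read in 52 cells (30.95%), a median of 0 and a highest cell of 56.02 CPM. After thinning, 4.49% of E6.75 cells (1.24% to 11.1%) and 11.9% of E7.25 cells (7.43% to 17.8%) held a read. The E6.75 reads were few and came mostly from 5 cells, which held 76.8% of them. Later over earlier stage, the log2 ratio was 1.37 with 1 CPM added, and Hand2 lay below the mean of 5 CPM asked of the genes behind the 4.13% that were 2-fold higher.

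Hand2os1 moved the same way and could be read in both sets. It went from 1.66 CPM at E6.75 to 10.4 CPM at E7.25 in set 1, a log2 ratio of 2.09, and from 1.87 to 9.43 CPM in set 2, a ratio of 1.86. Per kilobase of exon, at E7.25 in set 2, Hand1 stood at 49.3, Hand2 at 1.34 and Hand2os1 at 0.734 CPM per kilobase. At E6.75 in set 2 Hand1 stood at 34.3 and Hand2 at 0.261 CPM per kilobase. Hand1 was thus the more abundant of the pair at both stages.

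Across the E7.25 clusters in set 2, Hand2 and Hand1 were both highest in the extraembryonic mesoderm-like cluster. Both were lower in the Id2 and Msx1 cluster and lower again in the Tbx3 and Evx1 cluster. From the first to the last of these, Hand2 fell by a larger fold than Hand1. Hand2 stood at 19.8 CPM in the extraembryonic mesoderm-like cluster, with a read after thinning in 72.7% of its 11 cells of set 2. In the Id2 and Msx1 cluster it stood at 11.2 CPM, with a read after thinning in 36.4% of 11 cells. In the Tbx3 and Evx1 cluster, whose Hand1 level was 219.6 CPM, Hand2 stood at 3.37 CPM. After thinning, 8.33% of its 24 cells held a Hand2 read. Without thinning, the shares of cells with a Hand2 read were 81.8%, 72.7% and 54.2% in these 3 clusters, in that order. These 3 clusters held 83.2% of the Hand2 reads of set 2 at E7.25. Hand2os1 followed Hand2 in these 3, at 40.5, 34.4 and 5.24 CPM in the same order. It was also read in the Lhx1 and Gsc cluster at 19.1 CPM, where Hand2 stood at 2.30 CPM. The cluster led by AA474408 and Mir6236 had 7.50 CPM of Hand2os1, and the Alx1 and Tcf15 cluster 5.86 CPM. In set 1 Hand2os1 stood at 27.5, 48.4 and 1.91 CPM in the same 3 clusters. There the Alx1 and Tcf15 cluster had 41.02 CPM, and the AA474408 and Mir6236 cluster 25.8 CPM.

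Cells that held Hand2 nearly all held Hand1, while most cells with Hand1 held no Hand2. Among thinned E7.25 cells of set 2, 18 of the 20 with a Hand2 read also held a Hand1 read. Hand2 was read in 26.9% of the 67 cells with Hand1 (interval 16.8% to 39.1%) and in 1.98% of the cells without (0.241% to 6.97%), an odds ratio of 14.9. At E6.75, 3 of the 4 cells with Hand2 held Hand1, too few for a comparison. In set 1 the odds ratio at E7.25 was 1.39, and over both sets 2.27, with the band of Hand2 reads in every set 1 cell. Spearman's rank correlation (rho) of the pair across thinned cells of set 2 was 0.45 over the E7.25 cells and 0.14 over the 89 cells of E6.75.

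At E7.25 Hand2os1 was also read more often in cells with Hand1 than in cells without, in both sets. It was read in 43.3% of cells with Hand1 and in 10.9% of those without in set 2, and in 42.9% and 17.98% in set 1. Of the cells with Hand2os1, 29 of 40 in set 2 and 36 of 52 in set 1 held Hand1. At E6.75 the shares were 18.8% and 2.44% in set 2 and 13.04% and 5.41% in set 1, which rest on 1 to 9 cells each and have overlapping intervals in both sets. Of the 20 E7.25 cells of set 2 with Hand2, 16 also held Hand2os1, whose reads share 461 exon bases with Hand2.

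**Figure D4:**
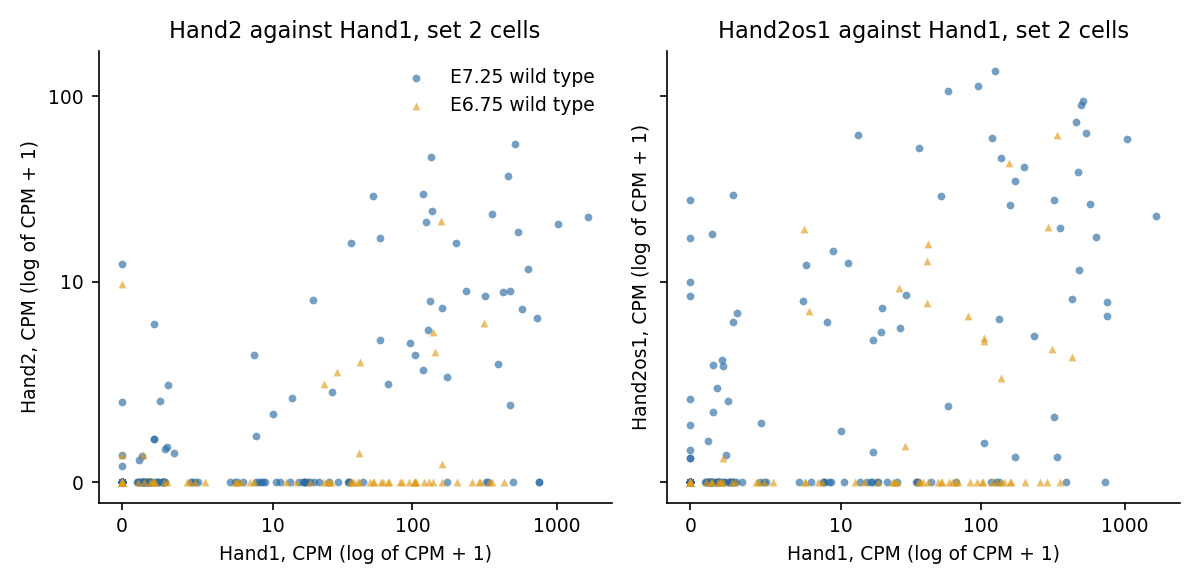
Hand2 (left) and Hand2os1 (right) against Hand1 in each wild type cell of library set 2, in CPM on log axes of CPM + 1, by stage. At E7.25 nearly all cells with Hand2 lie to the right, where Hand1 is read, and many cells with Hand1 have Hand2 at 0.

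Genes that vary with Hand1 were ranked by the mean of 2 rho values, those of E6.75 and E7.25 cells of set 2, with reads thinned to 100000 per cell. Set 1, which the ranking did not use, gave a second reading in other cells. All cells of a stratum share 1 stage and 1 library set, and rho of Hand1 with the total reads of a cell was between -0.07 and 0.16 in the 4 wild type strata. Of 10751 genes, 49 had rho of at least 0.2 in all 4 strata, 0.456%, and 18 had rho of at most -0.2 in all 4, 0.167%.

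Msx2, a homeobox gene that BMP signalling induces, ranked first in both sets. Its rho with Hand1 was 0.73 at E6.75 and 0.69 at E7.25 in set 2, and 0.64 and 0.69 in set 1. Tbx3, a T-box repressor, followed with 0.67 and 0.65 in set 2 and 0.45 and 0.56 in set 1. Phlda2, an imprinted gene known for restraining placental growth, had 0.64 and 0.56 in set 2 and 0.69 and 0.52 in set 1. Wls, the carrier that Wnt proteins need for secretion, had 0.68 and 0.52 in set 2 and 0.46 and 0.45 in set 1. Of these 4 genes none fell below the 0.45 that Tbx3 had at E6.75 in set 1.

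Foxf1, a forkhead gene of extraembryonic and lateral mesoderm, was the third gene in set 2, with 0.54 and 0.70, but stood at -0.09 and 0.10 in set 1. Foxf1 was read in 100% of set 1 cells and in 20.2% and 35.1% of set 2 cells, and its level was 1329 CPM in set 1 and 10.1 CPM in set 2 at E6.75, so like Hand2 it can be read in set 2 alone. With Msx2, Tbx3, Phlda2 and Wls it made up the 5 genes most like Hand1. Gata3 also differed between the sets, with a gap of 42.02 percentage points in its share of cells and rho of 0.58 and 0.35 in set 2 against 0.05 and 0.20 in set 1.

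The other 14 of the 20 highest genes were Prdm6, Pmp22, Gata4, Ccnd2, Peg3, Bmper, Ppic, Slc6a6, Tbx20, Hs3st3b1, Igf2, Bambi, Tmem88 and Gata2. Prdm6, a transcriptional repressor, had 0.65 and 0.54 in set 2 and 0.52 and 0.43 in set 1. Pmp22, a membrane protein, had 0.54 and 0.64 in set 2 and 0.44 and 0.61 in set 1. Gata4, a zinc-finger factor of heart and endoderm, had 0.68 and 0.47 in set 2 and 0.33 and 0.28 in set 1. Ccnd2, cyclin D2, had 0.56 and 0.56 in set 2 and 0.59 and 0.45 in set 1. Tbx20, a T-box factor of the heart, had 0.45 and 0.47 in set 2 and 0.27 and 0.38 in set 1. Igf2, an imprinted growth factor, had 0.46 and 0.45 in set 2 but 0.07 at E6.75 and 0.50 at E7.25 in set 1. The last gene inside was Gata2, with a mean of 0.45, and the first outside was Glis1, with 0.44.

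Among the 10 lowest genes were Dapk1, Lrig3, Cd24a, Polr2h, Dnmt3b, Tgfbr3, Otx2, Zic5 and Epha1. Dnmt3b, a DNA methyltransferase of the epiblast, had -0.58 at E6.75 and -0.29 at E7.25 in set 2, and -0.45 and -0.19 in set 1. Otx2, a homeobox gene of epiblast and anterior tissues, had -0.48 and -0.30 in set 2 and -0.48 and -0.43 in set 1. Cd24a, a surface glycoprotein, had values between -0.48 and -0.42 in all 4 strata. The last gene inside was Epha1, with a mean of -0.38, and the first outside was Ntn1, with -0.36.

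In set 1, 15 of the 20 highest genes had rho of at least 0.2 in both strata, beside 0.819% of all genes, and 7 of the 10 lowest had at most -0.2, beside 0.53%. The median of their mean rho in set 1 was 0.33 and -0.34, beside -0.002 over all genes. The 5 of the 20 that missed were Foxf1 and Gata3, with the wide gaps between sets given above, and Slc6a6, Hs3st3b1 and Igf2, each below 0.2 at E6.75. The 3 of the 10 lowest that missed were Dnmt3b and Tgfbr3, at -0.19 and -0.11 at E7.25, and Epha1, at -0.14 at E6.75.

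**Figure D5:**
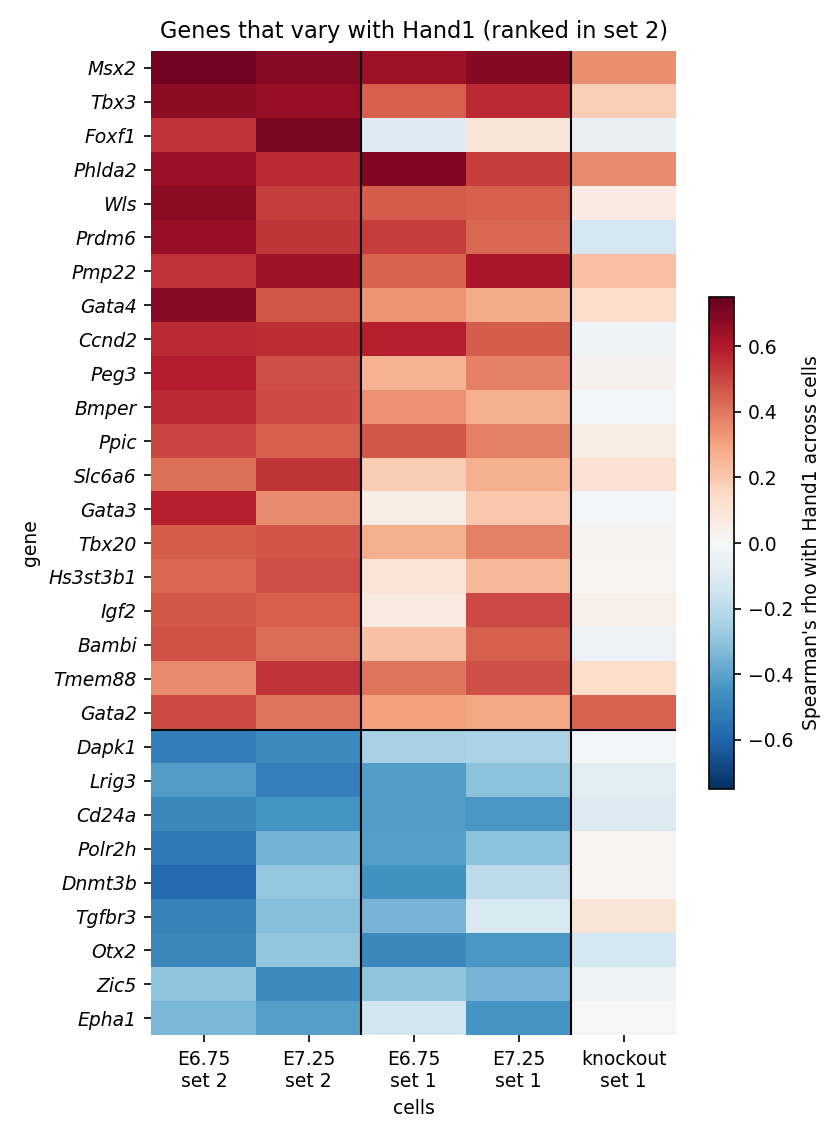
Spearman's rho with Hand1 across cells, for the 20 highest and 9 of the 10 lowest genes by the mean of the set 2 columns, in each wild type stratum and in knockout cells. The set 2 columns were used for the ranking. In set 1 the sign was the same in both strata for 19 of the 20 and 10 of the 10 genes. In knockout cells most values lie near 0, but 15 of those 85 cells held a Hand1 read after thinning, so rho there rests on few cells.

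The named lists are given by role, from the partners of Hand proteins to the genes they share tissues with. The E proteins Tcf3, Tcf4 and Tcf12, the dimer partners, had median rho with Hand1 of -0.17 to -0.001 by stratum. Of the 3, 0 passed rho of 0.2 in all 4 strata in either direction, and with 0.456% and 0.167% of all genes passing nothing is read from that count. Tcf3 was read broadly, at 126.3 CPM in knockout, 133.1 CPM in E6.75 and 199.96 CPM in E7.25 wild type cells of set 1. Of the Id inhibitors, 2 passed upward: Id1 had 0.41 and 0.39 in set 1 and 0.31 and 0.48 in set 2, and Id3 0.22 and 0.52 in set 1 and 0.20 and 0.47 in set 2. Id2 had 0.12 and 0.10 at E6.75 and 0.45 and 0.50 at E7.25. Of the 9 relatives in the Twist family, 2 were read often enough, Twist1 and Tcf15, and neither passed.

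Of the BMP ligands, Bmp4 passed, with 0.47 and 0.59 in set 1 and 0.25 and 0.59 in set 2. Bmp4 stood at 2.92 CPM in knockout, 9.30 CPM in E6.75 and 64.1 CPM in E7.25 wild type cells of set 1. Bmp2 had rho of 0.31 and 0.41 at E7.25 but 0.16 and -0.002 at E6.75, and Bmp7, the most read ligand, had -0.21 and -0.27 in set 2 beside 0.04 and 0.11 in set 1. Of the 8 BMP receptors and Smads read often enough, 0 passed. Of the 12 BMP response genes read often enough, 9 passed upward, namely Id1, Id3, Msx1, Msx2, Smad6, Smad7, Bambi, Tbx3 and Gata2, and 0 downward, with medians of 0.27 to 0.45 by stratum. Of all genes 0.456% passed upward. The lists were chosen with earlier results of these data known, so their shares are not ranked against it. Of the extraembryonic mesoderm markers, 7 of the 10 read often enough passed. The 7 were Bmp4, Pmp22, Spin2c, Tbx20, Msx1, Msx2 and Amot, so Msx1 and Msx2 count here and in the BMP response list. Id1 and Id3 also count in the Id list, Bmp4 among the BMP ligands, and Tbx3 and Tbx20 among the heart field regulators.

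Genes of the cell types around Hand1 varied with it to different degrees. Of the 5 haemato-endothelial genes read often enough, Etv2 and Kdr passed, with Etv2 at 0.45 and 0.37 at E6.75 and 0.21 and 0.33 at E7.25. Of 14 heart field regulators, 5 were read often enough, and Tbx20, Gata4 and Tbx3 passed. Of 16 cardiac progenitor markers, 4 were read often enough and none passed, so most of that list was not ranked. At E7.25, 5 of the 16 were at least 2-fold higher in the extraembryonic mesoderm-like cluster and 5 in the Id2 and Msx1 cluster. The Tbx3 and Evx1 cluster had 1, and each other cluster at most 3. Nkx2-5, a heart regulator read too rarely for the ranking, had all of its thinned reads in cells that also held Hand1. These were 4 of 4 cells at E6.75 and 5 of 5 at E7.25 in set 2, and 2 of 2 and 8 of 8 in set 1. By stratum, 39.9% to 55.4% of all thinned wild type cells held Hand1, and each Nkx2-5 count is of at most 8 cells. The 6 mesoderm regulators Mesp1, Mesp2, Eomes, T, Mixl1 and Tbx6 did not pass. Mesp1 had rho with Hand1 of 0.11 and 0.15 at E6.75 and -0.23 and 0.07 at E7.25. Of the 10 epiblast genes read often enough, 0 passed upward and Otx2 was among those that passed downward. Sp5 of the primitive streak, Apln and Dll1 also passed downward.

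Between the wild type stages, each of them 1 sample, Msx2 and summed Hand1 differed in opposite directions. Msx2 stood at 122.99 CPM at E6.75 and 71.9 CPM at E7.25 in set 1, and at 120.5 and 72.7 CPM in set 2, lower at the stage where summed Hand1 was higher. After thinning, Msx2 was read in 95.7% of Hand1 cells and 54.1% of other cells at E6.75 in set 1, and in 93.8% and 51.2% in set 2. At E7.25 it was read in 79.8% and 28.1% in set 1, and in 76.1% and 19.8% in set 2. Bmp4 was read at E7.25 in 50% of Hand1 cells and 10.1% of others in set 1, and in 53.7% and 12.9% in set 2. Tbx6, a regulator of paraxial mesoderm, had the opposite order at E7.25, with 48.8% of Hand1 cells and 76.4% of others in set 1, and 64.2% and 75.3% in set 2.

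Several of the genes that varied with Hand1 in wild type cells were lower in knockout cells. Of the 20 highest genes, 16 had a mean of at least 5 CPM in set 1 and were not Foxf1, which cannot be read there, and 9 of these 16 were at least 2-fold lower in knockout cells, beside 4.65% of genes with that mean. The 20 genes were ranked and filtered for reads in wild type cells alone, so nothing about them as a group is read from this count. Phlda2 went from 529 CPM in E6.75 wild type cells of set 1 to 93.1 CPM with the knockout, Gata4 from 139.3 to 48.8 CPM, Msx2 from 122.99 to 59.2 CPM and Tbx20, with a mean under 5 CPM, from 8.04 to 0.773 CPM. Ccnd2 differed little, with 196.6 and 184.2 CPM. Of the 10 lowest genes 1, Tgfbr3, was at least 2-fold above wild type, beside 2.47% of genes. Across knockout cells, 4 of the 20 genes, Msx2, Phlda2, Pmp22 and Gata2, had rho of at least 0.2 with Hand1, beside 4.4% of all genes, with Msx2 at 0.35. Gata2 was read in 5.88% of thinned knockout cells, so its value rests on few cells. Of the 10 lowest genes 0 had rho of at most -0.2 there, beside 2.8%.

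The 15 knockout cells with a Hand1 read after thinning were few, and their shares carry wide error. Of them, 13 held Msx2, beside 54.3% of the 70 other knockout cells, and 6 held Bmp4, beside 12.9%. Fewer, 3, held Etv2, beside 51.4% of the others, and 5 held Mesp1, beside 61.4%. In wild type cells of set 1 at E6.75, 71.7% of Hand1 cells and 54.1% of others held Etv2, the opposite order, a difference that was not tested. The summed level does not tell fewer cells with Hand1 from less Hand1 RNA per cell. In knockout cells beside wild type cells of set 1, the thinned share was 17.6% beside 55.4%, and the 90th percentile over all cells, which moves with that share, was 23.5 CPM beside 212.2 CPM.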

How the data were processed

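The deposited table holds raw read counts per gene in 1 column per cell, and every column matched a sample title. The authors aligned reads with GSNAP and counted them with HTSeq 0.5.3p3 on mm10, per the submitters' processing notes. Their parameters, annotation release, strand setting and any earlier cell filter were not given in the sources used here. Libraries were whole-transcript and made with Nextera XT, without molecular identifiers, per the labels' protocols. Intervals thus cover the counting of reads or cells, and not of molecules or embryos. Of 40912 gene identifiers, 40254 were matched to a symbol.

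Cells with at least 100000 reads on genes and 2000 genes were kept, which removed 0 of 598. A cell was put in set 1 when it held reads of at least 5 of the 8 genes named above. Levels are reads summed over a group per 1000000 reads on genes (CPM), and log2 ratios have 1 CPM added. Cells were thinned to 100000 reads without replacement for shares and for Spearman's rho. Genes entered the ranking with a read in at least 10% of the thinned cells of each stratum and a gap under 70 percentage points between sets. The named genes were Hand1, Hand2, the role lists, and the 20 highest and 10 lowest genes by mean rho in set 2, without predicted gene models, mitochondrial genes, Xist and Y-linked genes. The members and lists were chosen with earlier results of these data known. Clusters came from scanpy 1.11.5 (2000 variable genes, 20 components, 15 neighbours, resolution 1), without 374 genes that differed by over 40 points between sets. A name needed 3 markers at least 2-fold higher, 2 of them among the 10 leading genes, and no other list ahead, a rule tightened after the clusters were seen. Of the 10 lowest genes, 1 is not reported here. Doublets were not called, since cells were sorted singly into wells. Scaling alternatives used edgeR 4.0.16 and DESeq2 1.42.0 factors. The log2 ratios and the calls by rho were tested on simulated data, and the other steps were not. Promoters were from RefSeq, and 11 of the 20 highest genes had an entry.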

Additional observations from a re-analysis of the deposited data

How the results depend on the processing

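With 1 sample in each group, replicates could not be left out in turn. No paired analysis was possible because the numbers in the titles only number cells. Hand1 kept its direction between knockout and wild type cells under all 11 alternatives. Of these, leaving out the filter on cells or the filter on genes could not change the ratio. The cell filter removed no cells, and the ratio used no gene filter. The Hand1 log2 ratio of -3.43 became -2.91 as a mean over cells, -2.34 with 10 CPM added and -2.92 after thinning. It became -3.58 with cells of at least 500000 reads and 4000 genes, and -2.87 without the 5% deepest cells. The Hand1 stage ratio of 0.52 became 0.48 with median-of-ratios factors, 0.58 as a mean over cells, 0.47 with 10 CPM added, 0.63 after thinning and 0.61 without the deepest cells.

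The Hand2 knockout ratio of 0.82 became 0.92 with median-of-ratios factors, 0.51 with 10 CPM added, 0.95 after thinning, 0.72 with the stricter cell filter, 1.13 without the deepest cells and -0.48, reversed, in set 1. The Hand2 stage ratio of 0.34 became 0.21 as a mean over cells, 0.20 with 10 CPM added, 0.19 after thinning, 0.44 with the stricter filter, 0.42 without the deepest cells and 1.37 in set 2. The odds ratio of Hand1 and Hand2 of 2.27 became 3.95 at 500000 reads, 1.39 in set 1 and 14.9 in set 2.

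The 49 genes that varied upward with Hand1, 0.456% of those ranked, became 12 (0.112%) at a threshold of 0.3, 88 (0.819%) from set 1 alone and 1.23% of those ranked from set 2 alone. The 18 downward (0.167%) became 3 (0.0279%), 57 (0.53%) and 53 (0.493%). Without the epiblast-like cluster 9 (0.0838%) were downward, all 9 among the 18, and 46 upward, 39 of them among the 49. Other settings of the ranking kept both counts within 1.5 times, but not always the same genes. Of the 18 downward, 12 were shared with log2(CPM + 1) without thinning and at least 17 with each of the rest. Of the 49 upward, at least 41 were shared with each. The cause of these shifts was not tested, apart from fewer or more strata asked of a gene. Depth limits Hand2 at E6.75, with 99 reads in set 2, and the 15 knockout cells with Hand1.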
